A study of Mus musculus with 18 samples.

Results

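The genes of the eukaryotic translation initiation factors were followed through RNA sequencing of CD8+ T cells from mice. Members were the protein-coding genes in GENCODE M21 whose symbol starts with Eif and a digit from 1 to 6, without the eIF2 kinases (Eif2ak), the eIF4E-binding proteins (Eif4ebp) and the eIF4E transporter (Eif4enif). This gave 47 of the 55536 genes in the table, of which 22028 are protein-coding, and 19 other Eif symbols were left out by the same rule. The rule reads gene names and types and no measured value.

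The 18 libraries came from spleen and lymph nodes, and the labels give OT-I as the genotype of every library, a mouse line carrying a transgenic receptor for SIINFEKL, a peptide of ovalbumin. There were 8 libraries of naive cells at day 0, 8 of control cells that had received a scrambled sequence and 2 labelled Tra2bKO. Control and Tra2bKO cells were day 4 samples, stimulated by SIINFEKL plus costimulatory antibodies to OX40 and 4-1BB. The control against naive comparison therefore differs in day, in stimulation and in the scrambled treatment. These groups also differed in a receptor segment and in sex-linked genes, as described below. The part of each in the comparison was not tested. The labels do not say how the knockout was made, whether libraries of a group came from separate animals, or whether animals were pooled. A p-value here therefore sets a group difference only against the spread between libraries of a group, and that spread may be technical.

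Total counts were 68249844 to 86932452 per naive library, 73735681 to 93972513 per control library, and 79197461 and 93495846 in the Tra2bKO libraries. Tra2b, the targeted splicing regulator, stood at 361 and 370 CPM (counts scaled to the library total, with TMM factors) in the Tra2bKO libraries and at 338 to 525.9 CPM in the controls. The groups overlapped through control 2, at 338 CPM, and the other controls were at 440 to 525.9 CPM. The log2 fold change of Tra2b was -0.34 (SE 0.13, edgeR adjusted p = 0.0899), and the gene total therefore does not check the label. Trbv12-1, the beta chain segment of the OT-I receptor, was at 40.8 to 82.5 CPM in the naive libraries, 850 to 1052 CPM in the controls and 901 and 729 CPM in the Tra2bKO libraries, so the naive libraries lay far below the others although the label OT-I is the same. The 7 CD8 T cell markers summed to 7132 to 8524 CPM in naive, 4765 to 5732 CPM in control and 5142 and 4451 CPM in Tra2bKO libraries.

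Markers of myeloid and dendritic cells, B cells and NK cells were higher in sum in the naive group. Those of CD4 T cells summed to 4.13 to 6.07 CPM in naive and 4.42 to 20.8 CPM in control libraries. Erythroid and platelet markers summed to 1.68 to 24.1 and 0.309 to 11.1 CPM. Among single markers, Cst3 had a mean of 720 CPM in naive and 114 CPM in control libraries. The means of Blk and Itgam were higher in control libraries. The summed level of 9 myeloid and dendritic cell markers was 439 to 1197 CPM in naive and 122 to 162 CPM in control libraries, that of 8 B cell markers 70.8 to 138 and 13.9 to 27.7 CPM, and that of 5 NK cell markers 45.6 to 86.3 and 4.51 to 12.9 CPM. The means of 1, 3 and 0 of these markers, in that order, were under 1 CPM in naive libraries, and those of 4, 5 and 3 in controls. With receptor segments and these markers left out of the fit, 35 members were higher and 3 lower in control than in naive libraries, the same counts as with them. The part of RNA from other cells in the member genes themselves was not tested, and fewer cells of a type and less RNA per cell cannot be told apart in bulk samples.

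Initiation assembles a ribosome at the start codon. The eIF4F complex, made of the cap-binding protein eIF4E, the scaffold eIF4G and the helicase eIF4A, recruits the mRNA, while eIF2 brings the initiator tRNA, eIF3 bridges the mRNA to the small subunit, and eIF1, eIF1A and eIF5 control start codon choice before eIF5B joins the large subunit. T cells raise protein synthesis strongly when they leave the resting state, and eIF4E and eIF2 are the main points where signalling controls the rate.

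Most initiation factor genes were higher in the control than in the naive libraries. Of 46 members tested, 35 rose, 3 fell and 8 were not called (edgeR quasi-likelihood test, Benjamini-Hochberg adjusted p under 0.05 over 17078 genes). Among all genes tested 71.5% were called, 32.5% higher and 39% lower. Members are abundant transcripts. Among the 7766 genes whose mean log2 CPM reached 4, 80.5% were called, 46.2% higher and 34.3% lower, against 34 and 3 of 44 members. The median log2 fold change was 0.40 over the members and -0.08 over all genes tested. The changes were modest, and no member passed an absolute log2 fold change of 1. In 28 members every control library lay above every naive library, and in 1, Eif4a2, every control library lay below. Over all genes these patterns occurred in 20% and 22.5%, and over the abundant genes in 33.3% and 22.7%. The remaining member, Eif4e1b, the germ-line form of the cap-binding protein, had 0 counts in all 18 libraries, which allows a level of up to 0.0320 to 0.0440 CPM per library (3 counts, counting error only).

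**Figure D1:**
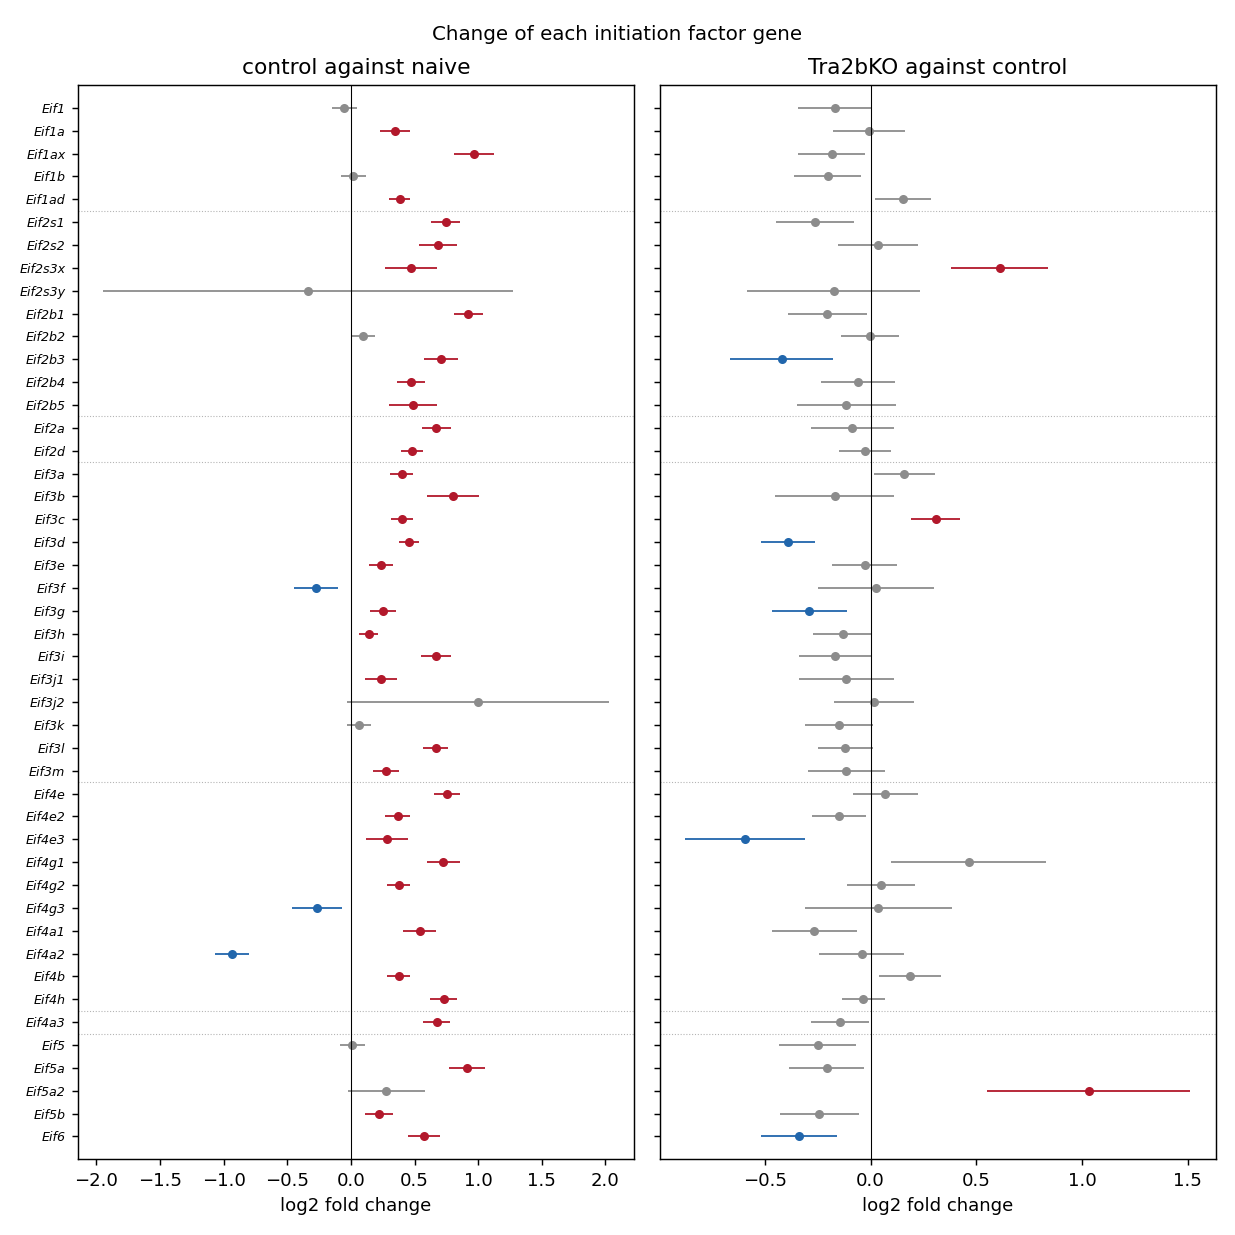
Log2 fold change (x axis) of each member tested (y axis, grouped by role between dotted lines) for control against naive (left) and Tra2bKO against control (right), with points for the estimate and lines for its approximate 95% confidence interval (normal, from the SE). Red marks genes called higher, blue genes called lower and grey genes not called. On the left 35 members are red and 3 blue, and on the right 3 are red and 5 blue.

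Compared per length, the initiation factors covered a wide range of levels. TPM (a level per transcript length, from the transcript counts and annotated lengths, scaled to the same sum in each library) placed Eif5a first in every group, with means of 1761 TPM in naive, 3051 TPM in control and 2785 TPM in Tra2bKO libraries. Eif5a encodes a hypusine-carrying factor that helps the ribosome through difficult peptide bonds. Eif1, the start codon fidelity factor, at 790 TPM, and the helicase gene Eif4a1, at 690 TPM, came next in naive libraries and changed places in the controls, at 695 and 926 TPM. The lowest levels among members with counts were those of the paralogs Eif5a2, at 2.58, 2.89 and 6.34 TPM in naive, control and Tra2bKO libraries, and Eif4e3, at 9.25, 10.4 and 7.28 TPM. Subunits of the same complex differed widely. Among the 14 eIF3 genes naive means ran from 20.0 TPM (Eif3j2) to 420.4 TPM (Eif3k), and among the 9 eIF2 and eIF2B genes from 37.8 TPM (Eif2s3x) to 159 TPM (Eif2s1).

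**Figure D2:**
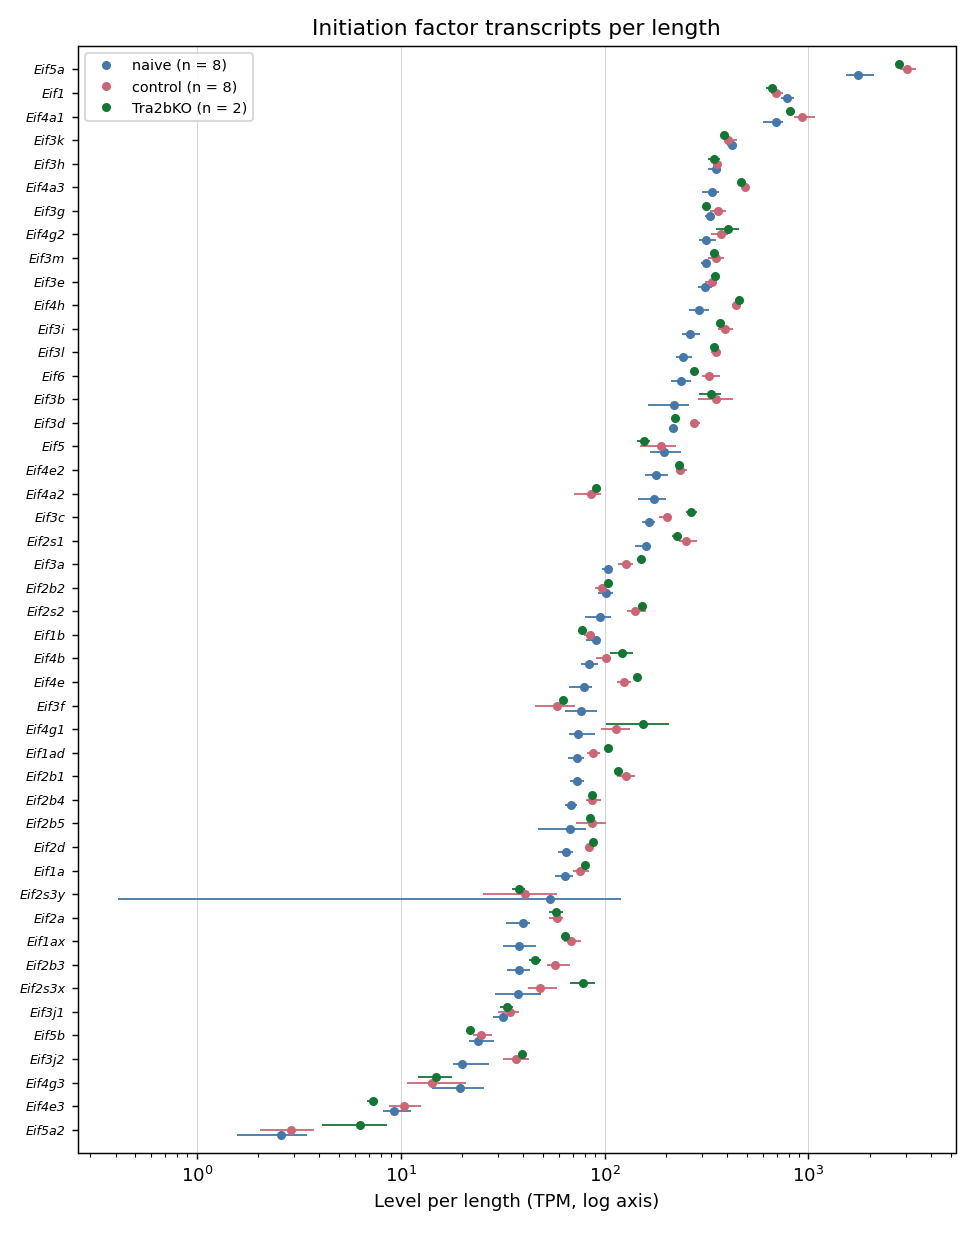
Level per length (x axis, TPM, log axis) of the members with counts (y axis, ordered by the naive mean). Points are group means and lines span the lowest to the highest library above 0, for naive (n = 8), control (n = 8) and Tra2bKO (n = 2). Eif5a is highest in all groups, and the naive line of Eif2s3y spans more than that of any other member.

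In the eIF1 group 3 of 5 members rose. Eif1ax, the X-linked gene for eIF1A, which scans for the start codon, had the largest rise of all members called. It stood between 90.8 and 136 CPM (median 109) in naive and between 200 and 253 CPM (median 212) in control libraries, with no overlap. Its log2 fold change was 0.97 (SE 0.08, edgeR adjusted p = 6.7e-09). Its paralog Eif1a and Eif1ad rose by 0.35 and 0.38. Eif1 itself was not called, with 533 to 621 CPM in naive and 498 to 625.3 CPM in control libraries (log2 fold change -0.05, SE 0.05), but was called lower when scaled by total counts only (-0.15, edgeR adjusted p = 0.00684).

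Of the 9 eIF2 and eIF2B genes 7 rose. eIF2B recharges eIF2 with GTP, and the gene of its alpha subunit, Eif2b1, was between 72.4 and 88.7 CPM (median 82.3) in naive and between 140 and 174 CPM (median 154) in control libraries. The groups did not overlap, and the log2 fold change was 0.92 (SE 0.06, edgeR adjusted p = 2.1e-10). Eif2s1, the eIF2 alpha subunit that the eIF2 kinases phosphorylate, rose from 271 to 328 CPM (median 305) to 458 to 586 CPM (median 492), again with no overlap (log2 fold change 0.74, SE 0.06). The eIF2B subunit gene Eif2b2 was not called (log2 fold change 0.10, SE 0.05, edgeR adjusted p = 0.0759). The alternative initiator tRNA factors Eif2a and Eif2d both rose, by 0.67 and 0.48 on the log2 scale. Eif2s2, the eIF2 beta subunit, and the eIF2B subunit genes Eif2b3, Eif2b4 and Eif2b5 rose by 0.47 to 0.71.

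The Y-linked gene of the eIF2 gamma subunit, Eif2s3y, split the naive libraries. It was at 104 to 137 CPM in naive 3, 4, 5 and 7 and at 0.456 to 4.79 CPM in naive 1, 2, 6 and 8, where Xist was at 109 to 127 CPM against 0.0409 to 0.609 CPM in the others. Every control library held both, with Eif2s3y at 30.5 to 66.3 CPM and Xist at 12.3 to 39.8 CPM. The X-linked gene Eif2s3x was at 76.8 to 95.6 CPM in naive 1, 2, 6 and 8 and at 61.8 to 68.6 CPM in the other naive libraries. In the controls it was at 90.3 to 135 CPM (log2 fold change 0.47, SE 0.10), and the part of this split in the comparison was not tested.

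Of the 14 eIF3 genes 11 rose, 1 fell and 2 were not called. Eif3b, a core subunit that carries an RNA recognition motif, was between 271 and 437 CPM (median 378) in naive and between 516 and 766 CPM (median 645) in control libraries, with no overlap (log2 fold change 0.80, SE 0.11). The other 10 risers of the complex, among them Eif3i (0.67), Eif3l (0.67), Eif3d (0.46), Eif3a (0.40) and Eif3c (0.40), rose by 0.14 to 0.67. Eif3k and Eif3j2 were not called. Without naive 6, the library listed at 0 for Eif3j2, Eif3j2 was called higher (log2 fold change 0.82, edgeR adjusted p = 5.9e-07). Eif3f ran the other way, with 90.5 to 124 CPM (median 107) in naive and 69.1 to 106 CPM (median 92.4) in control libraries. These groups overlapped, and the log2 fold change was -0.27 (SE 0.09, edgeR adjusted p = 0.0110). Against controls 1 and 2 alone Eif3f was not called (-0.06, edgeR adjusted p = 0.686).

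The largest contrast inside a family lay in eIF4F. Of the 10 cap-binding and eIF4F genes tested 8 rose and 2 fell. The cap-binding gene Eif4e was between 169 and 207 CPM (median 189) in naive and between 293 and 353 CPM (median 311) in control libraries (log2 fold change 0.76, SE 0.05). The scaffold gene Eif4g1 rose from 144 to 198 CPM (median 177) to 249 to 321 CPM (median 294), by 0.73 (SE 0.06), and Eif4h, a cofactor that stimulates the helicase, from 352 to 456 CPM (median 413) to 642 to 694 CPM (median 666), by 0.73 (SE 0.05). None of these 3 overlapped between groups. The helicase paralogs moved apart. Eif4a1 was between 603 and 774 CPM (median 710) in naive and between 926 and 1180 CPM (median 985) in control libraries (log2 fold change 0.54, SE 0.07), while Eif4a2 was between 182 and 253 CPM (median 214) in naive and between 97.6 and 125 CPM (median 117) in control libraries. The log2 fold change of Eif4a2 was -0.93 (SE 0.07, edgeR adjusted p = 1.3e-09), and it was called lower in all 27 alternative fits at the same threshold, though it does not reach an absolute log2 fold change of 1. The helicase cofactor gene Eif4b, the scaffold-like Eif4g2 and the cap-binding homologues Eif4e2 and Eif4e3 rose by 0.29 to 0.38. The scaffold paralog Eif4g3 was between 51.5 and 77.3 CPM (median 64.9) in naive and between 47.0 and 69.7 CPM (median 51.5) in control libraries. Its log2 fold change was -0.26 (SE 0.10, edgeR adjusted p = 0.0260), and this call was lost in 10 of 27 alternatives, with -0.12 against controls 1 and 2 alone. The helicase of the exon junction complex, Eif4a3, rose by 0.67 (SE 0.05).

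In the last group 3 of 5 members rose. Eif5a was between 1157 and 1598 CPM (median 1359) in naive and between 2272 and 2905 CPM (median 2466) in control libraries, with no overlap (log2 fold change 0.91, SE 0.07, edgeR adjusted p = 4.3e-09). Eif6, which keeps the large ribosomal subunit from joining early, rose by 0.58 (SE 0.06), and Eif5b by 0.22 (SE 0.05). Eif5, the activator of the eIF2 GTPase, was not called (log2 fold change 0.01, SE 0.05).

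**Figure D3:**
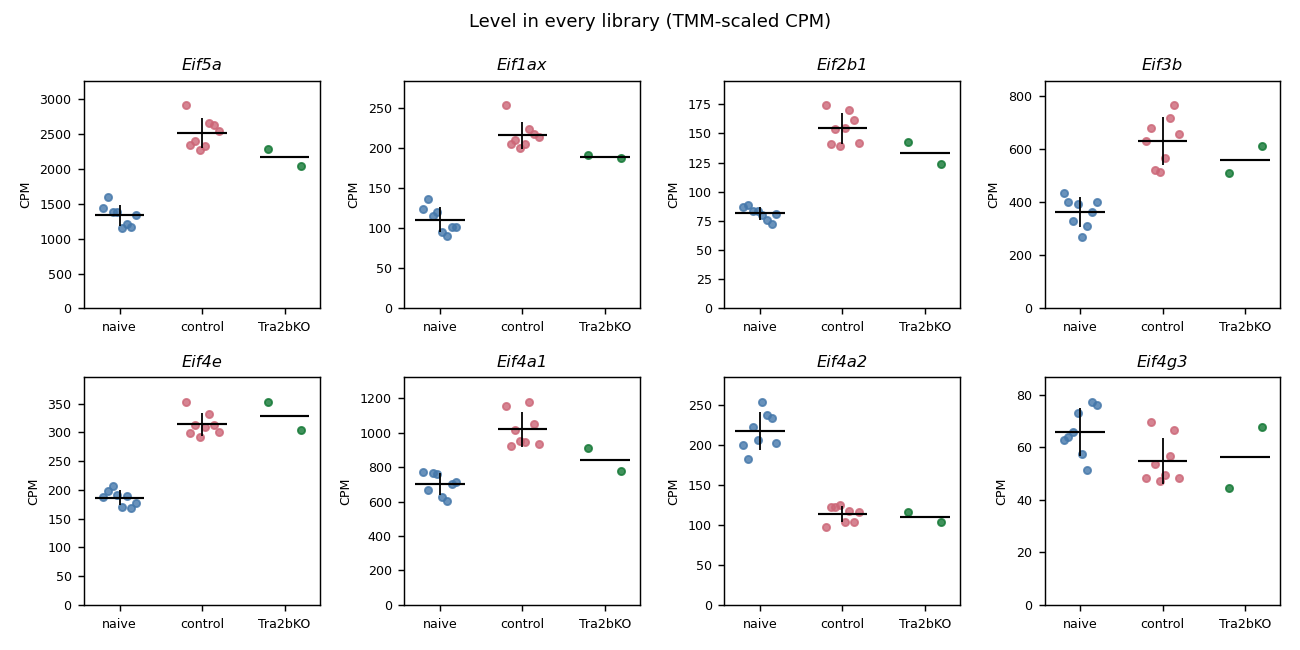
CPM (y axis, from 0) in every library of 8 members by group (x axis), with points for libraries, horizontal lines for means and vertical lines for the SD where there are more than 2 libraries. Controls lie above naive libraries in Eif5a, Eif1ax, Eif2b1, Eif3b, Eif4e and Eif4a1, below them in Eif4a2, and overlap them in Eif4g3.

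The balance within paralog pairs was compared as the share of the second gene in the sum of both, per length. The 6 pairs were tested with an exact two-sided permutation test of 8 against 8 libraries, whose smallest p is 0.000155. Eif4a2 made up 20.3% ± 2.85 (SD) of the eIF4A pair in naive and 8.54% ± 1.24 in control libraries (exact permutation p = 0.000155, adjusted p = 0.000311). It made up 9.79 and 10.4% in the Tra2bKO libraries. The share of Eif4g3 in the Eif4g1 pair was 20.7% ± 2.83 in naive and 11.2% ± 2.52 in control libraries (adjusted permutation p = 0.000311). Eif4e2, a cap-binding homologue linked to repression, held 69.4% ± 1.81 and 65.5% ± 1.78 of its sum with Eif4e (adjusted permutation p = 0.00210). The share of Eif1b, 10.3% ± 0.552 and 10.9% ± 0.477 of its sum with Eif1, passed the threshold narrowly (adjusted permutation p = 0.0437). It did not pass from gene counts in place of TPM (adjusted permutation p = 0.0810), nor in 10 of 16 cases with 1 library left out. Eif5a2 was 0.147% ± 0.0357 and 0.0954% ± 0.0231 of its sum with Eif5a (adjusted permutation p = 0.00615), with 0.143 and 0.316% in the Tra2bKO libraries. Eif3j2, a near-copy of Eif3j1 on another chromosome, rose from 36.6% ± 15.6 to 51.8% ± 3.36 (adjusted permutation p = 0.000311). Naive library 6 was listed at 0 for Eif3j2, and without it the difference was 10.03 in place of 15.3 percentage points. Reads that match both copies cannot be assigned with certainty, so the Eif3j1 and Eif3j2 values are uncertain.

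**Figure D4:**
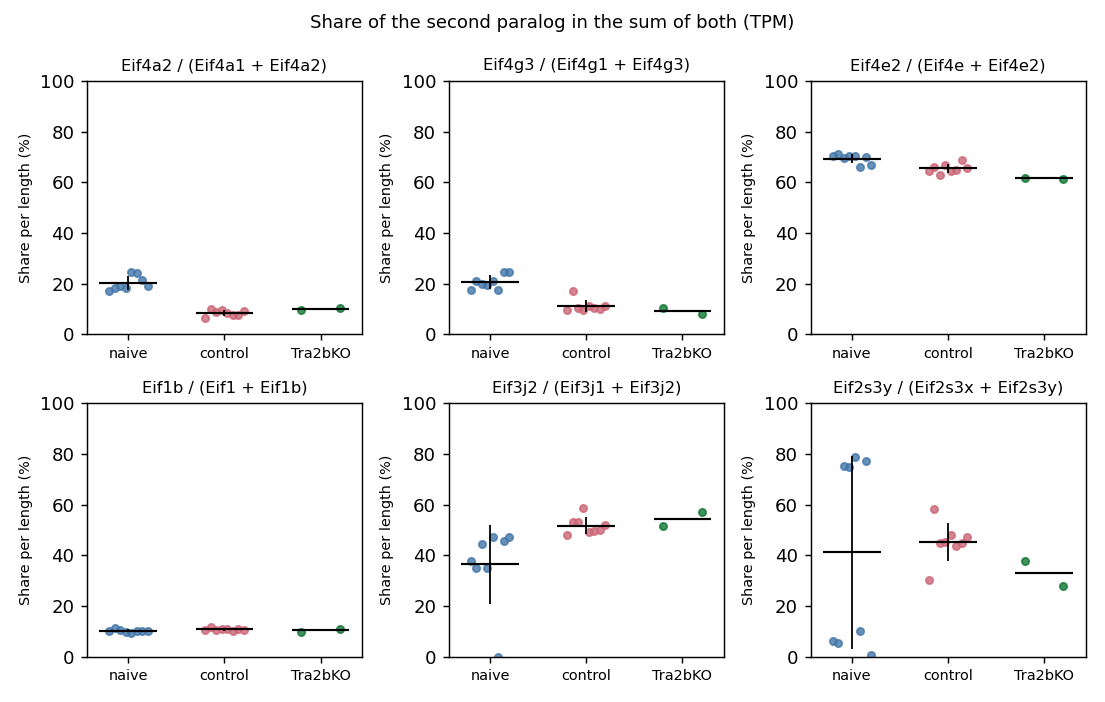
Share (y axis, percent of the summed TPM of both genes) of the second gene in 6 paralog pairs by group (x axis), with points for libraries, horizontal lines for means and vertical lines for the SD where there are more than 2 libraries. The Eif4a2 share is 20.3% in naive and 8.54% in control libraries, and the Eif2s3y share, which was not tested and is drawn in place of the very low Eif5a2 share, splits the naive libraries.

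The upstream sequence of members was read from RefSeq windows of GRCm38.p6, which hold 250 bases before the start in 300 bases and were found for 37 of 47 members. The motif searched was CACGTG, the E-box bound by MYC and related factors, which reads the same on both strands. It was in a window of 10 of the 37 members and of 8.09% of 27025 genes, or 7.15% of 32851 windows. Of the 10 members with a match 6 rose in control against naive, 1 fell and 3 were not called, while 21 of the 27 members without a match rose. The median log2 fold change was 0.47 with a match and 0.40 without. A match is only a description of these letters. The helicase pair, Eif4h and Eif3f are shown since they moved in different directions, and Eif5a2 since it rose in the Tra2bKO libraries. Each sequence ends at the base before the more upstream of the GENCODE and RefSeq starts, on the gene's strand, with the E-box in capitals.
Eif4a1 (chr11:69672424-69672673, minus strand): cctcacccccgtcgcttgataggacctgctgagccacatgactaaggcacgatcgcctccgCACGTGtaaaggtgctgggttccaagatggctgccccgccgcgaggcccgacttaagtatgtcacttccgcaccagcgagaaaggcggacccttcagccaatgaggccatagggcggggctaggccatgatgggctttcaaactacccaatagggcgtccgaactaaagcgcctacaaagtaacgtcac
Eif4a2 (chr16:23107218-23107443, plus strand): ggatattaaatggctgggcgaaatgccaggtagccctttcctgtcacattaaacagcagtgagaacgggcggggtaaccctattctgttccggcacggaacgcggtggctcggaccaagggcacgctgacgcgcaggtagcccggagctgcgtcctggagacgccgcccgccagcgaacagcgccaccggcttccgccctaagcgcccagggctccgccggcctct
Eif4h (chr5:134639491-134639659, minus strand): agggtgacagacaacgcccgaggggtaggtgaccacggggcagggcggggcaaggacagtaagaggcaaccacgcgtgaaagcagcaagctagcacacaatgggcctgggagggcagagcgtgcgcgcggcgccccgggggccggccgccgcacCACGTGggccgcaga
Eif3f (chr7:108934165-108934414, plus strand): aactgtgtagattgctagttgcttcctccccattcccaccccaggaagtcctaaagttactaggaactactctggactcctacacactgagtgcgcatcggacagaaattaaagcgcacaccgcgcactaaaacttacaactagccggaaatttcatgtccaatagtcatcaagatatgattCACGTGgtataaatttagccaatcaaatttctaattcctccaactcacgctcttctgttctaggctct
Eif5a2 (chr3:28781027-28781275, plus strand): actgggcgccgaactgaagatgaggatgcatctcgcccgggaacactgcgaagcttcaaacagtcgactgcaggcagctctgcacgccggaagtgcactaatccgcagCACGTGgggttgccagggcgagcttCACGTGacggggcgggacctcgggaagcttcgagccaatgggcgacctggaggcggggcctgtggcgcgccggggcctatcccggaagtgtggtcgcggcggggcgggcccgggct
Counted from the end of each printed stretch, with -1 for its last base, the E-box begins at -189 in Eif4a1, at -15 in Eif4h and at -68 in Eif3f, and Eif5a2 has matches at -141 and -116. Eif4a2, the member that fell most, has no match in this stretch. Eif4a1 and Eif4h rose and Eif3f fell, so a match went with both directions. The pattern TGATGNAA, searched on both strands, was in a window of 1 member, Eif2s3x, and of 4.51% of genes.

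In the libraries labelled Tra2bKO few initiation factor genes differed from the controls. Of 46 members tested, 3 were higher, 5 lower and 38 not called (edgeR, over 18651 genes), while 7.62% of all genes were higher and 7.24% lower, so 17.4% of members and 14.9% of all genes were called. Among the 7436 abundant genes 23% were called, 11% higher and 12% lower, against 6 of 44 members. The share of members called was thus near that of all genes tested, and among abundant genes it was lower, at 13.6% against 23%. The median log2 fold change was -0.11 over the members and -0.01 over all genes. The estimate was below 0 in 33 members and above 0 in 13. Both Tra2bKO libraries lay below every control in 10 members (21.7%), against 12.4% of all and 18.4% of abundant genes, and above every control in 3, against 11.3% and 12.1%.

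Eif3d, the eIF3 subunit able to bind the cap, fell. It was at 245 and 238 CPM in the Tra2bKO libraries and between 298 and 337 CPM (median 311) in the controls, with no overlap. Its log2 fold change was -0.39 (SE 0.06, edgeR adjusted p = 0.00281), and the naive libraries were at 218 to 245 CPM. Eif3c, a core scaffold subunit, rose, with 496 and 525.8 CPM against 379 to 440 CPM (median 415) in the controls (log2 fold change 0.31, SE 0.06, edgeR adjusted p = 0.00554). Eif3g, which binds RNA near the entry channel, was at 205 and 191 CPM against 219 to 280 CPM (median 246), and its adjusted p lay at the threshold (log2 fold change -0.29, SE 0.09, edgeR adjusted p = 0.04999), lost in 15 of 20 alternatives. Members of one complex thus moved in both directions.

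Eif2s3x rose, with 145 and 181 CPM in the Tra2bKO libraries against 90.3 to 135 CPM (median 107) in the controls (log2 fold change 0.61, SE 0.12, edgeR adjusted p = 0.00585). Xist stood at 50.0 and 50.9 CPM in these 2 libraries, above the 12.3 to 39.8 CPM of the controls, and Eif2s3y at 46.5 and 38.5 CPM against 30.5 to 66.3 CPM. The part of this in the rise of Eif2s3x was not tested. Eif2b3, the gamma subunit of eIF2B, was at 48.3 and 41.4 CPM against 52.0 to 73.2 CPM (median 58.4), a log2 fold change of -0.42 (SE 0.12, edgeR adjusted p = 0.0416) lost in 10 of 20 alternatives.

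The largest change was that of Eif5a2, a low-abundance paralog of Eif5a. It was at 12.2 and 24.1 CPM in the Tra2bKO libraries against 6.32 to 11.4 CPM (median 8.67) in the controls. The groups did not overlap, but the pair of Tra2bKO values differed widely, and the log2 fold change was 1.03 (SE 0.25, edgeR adjusted p = 0.0159). Eif4e3, a low-abundance cap-binding homologue, fell to 11.5 and 9.62 CPM against 13.2 to 19.1 CPM (median 16.1), by 0.59 on the log2 scale (SE 0.15, edgeR adjusted p = 0.0183). Eif6 fell to 243 and 228 CPM against 274 to 353 CPM (median 295), by 0.34 (SE 0.09, edgeR adjusted p = 0.0283). Among the alternatives that kept both Tra2bKO libraries, this call was lost with voom and with replicate numbers as a block. It was also lost against controls 1 and 2 alone and after a correction for exon length and GC content. Eif4g1 was not called, and its Tra2bKO libraries stood at 256 and 543 CPM against 249 to 321 CPM in the controls (log2 fold change 0.46, SE 0.19, edgeR adjusted p = 0.119).

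**Figure D5:**
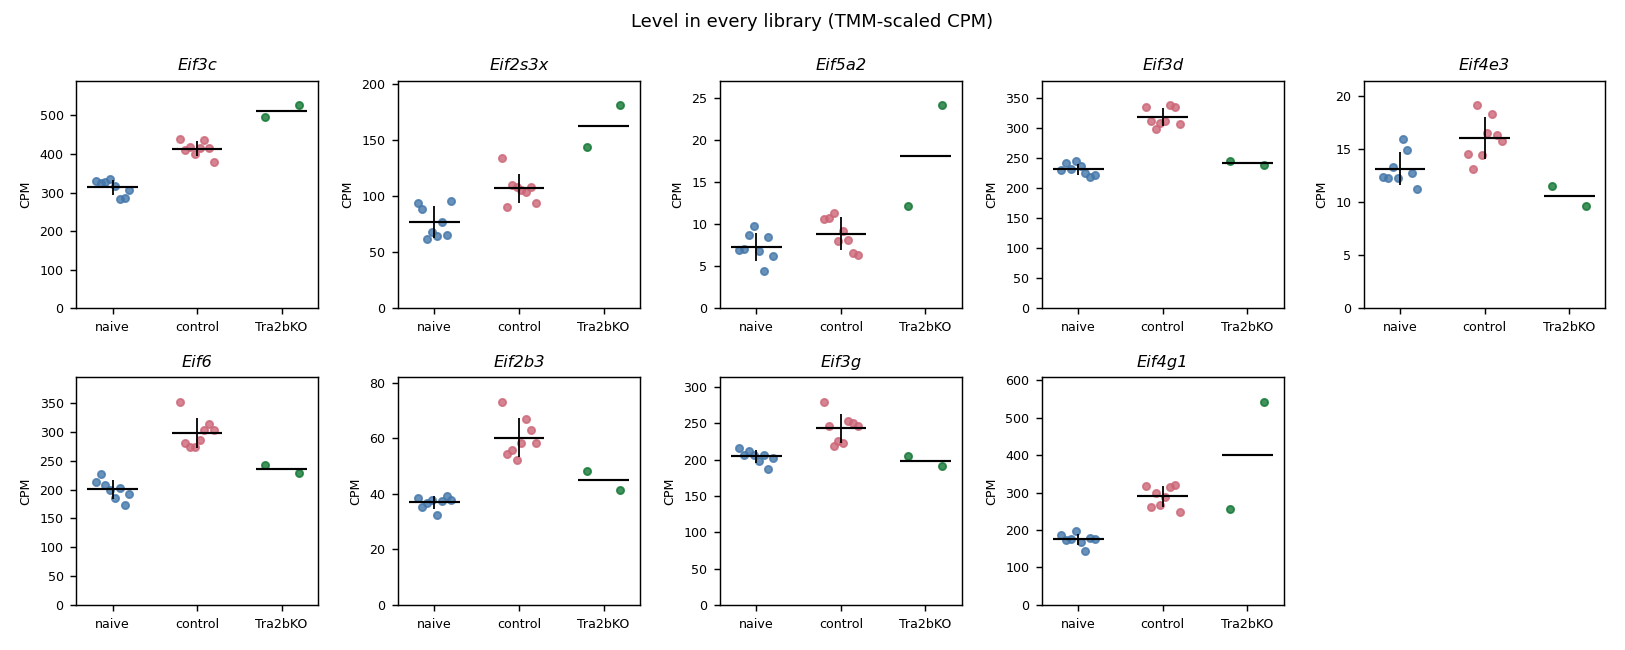
CPM (y axis, from 0) in every library of the 8 members called in Tra2bKO against control and of Eif4g1, by group (x axis), with points for libraries, horizontal lines for means and vertical lines for the SD where there are more than 2 libraries. Eif3d shows 2 Tra2bKO libraries at 245 and 238 CPM, below all controls, and Eif4g1 shows them far apart at 256 and 543 CPM.

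Without the library Tra2bKO 2, 0 members were higher and 1, Eif3d, was lower, while 304 genes of the whole table were called higher and 347 lower (edgeR). The log2 fold change of Eif5a2 was then 0.47. Without Tra2bKO 1, Eif6, Eif2b3 and Eif3g stood at -0.39, -0.55 and -0.36 on the log2 scale, and without Tra2bKO 2 at -0.29, -0.30 and -0.23. In both fits the spread comes from the control libraries alone, and the lone Tra2bKO library is assumed to vary like them. Leaving out control 5, 6, 7 or 8 left 3 lower in place of 5. After a correction for exon length and GC content Eif5a2, Eif6 and Eif3g stood at 0.73, -0.20 and -0.098 on the log2 scale and were not called (edgeR adjusted p = 0.0599, 0.192 and 0.523). Against controls 1 and 2 alone none of the 8 was called, and Eif4e3 stood at -0.38. The erythroid and platelet markers summed to 78.9 CPM in Tra2bKO 1 and 8.17 CPM in Tra2bKO 2, against 0.309 to 11.1 CPM in the controls. The B cell markers summed to 30.7 and 33.2 CPM in the Tra2bKO libraries against 13.9 to 27.7 CPM. The part of these in the member changes was not tested.

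Genes around the factors were examined in gene lists by function. For comparison, 32.5% of all genes tested were called higher and 39% lower in control against naive. No list was tested as a set. Hypusine is made on eIF5A by Dhps and Dohh from the polyamine spermidine, and the list also held the polyamine enzymes Odc1, Srm, Amd1 and Sms. In control against naive all 6 rose, among them the hydroxylase Dohh (log2 fold change 0.70, SE 0.07) and the spermine synthase Sms (0.86, SE 0.06), which acts downstream of spermidine. Of 10 inhibitors and kinases of eIF4E and eIF4A 2 rose and 4 fell. Pdcd4, an inhibitor of the eIF4A helicase, fell from 147 ± 29.4 to 24.7 ± 4.5 CPM (SD, n = 8 and 8, scaled within the comparison), by 2.57 on the log2 scale (SE 0.13, edgeR adjusted p = 1.2e-11). Of 11 eIF2 kinase and stress response genes 5 rose and 3 fell, the largest change being that of the eIF2 phosphatase subunit Ppp1r15a, by -1.37 (SE 0.09). Of 11 mTORC1 genes, a list that mixes activators and inhibitors, 3 rose and 6 fell, so the counts give no direction for the pathway. Rptor, the raptor gene, was at -1.16 (SE 0.10). Of the inhibitor genes, Tsc1 was at -0.55 (SE 0.10), Akt1s1 at -0.42 (SE 0.07) and Tbc1d7 at 1.18 (SE 0.09). Of 10 elongation and termination genes 6 rose and 2 fell, with the eEF2 kinase gene Eef2k at -1.70 (SE 0.11). Of 10 poly(A)-binding and 43S partners 7 rose and 1 fell, with the recycling factor Abce1 at 0.56 (SE 0.06).

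In Tra2bKO against control 3 of 11 eIF2 kinase and stress response genes rose, Atf4 (0.54, SE 0.06), Ppp1r15b (0.998, SE 0.19) and the kinase gene Eif2ak4 (0.58, SE 0.13). Over all genes tested in this comparison 7.62% were called higher and 7.24% lower. Of 10 inhibitors and kinases of eIF4E and eIF4A 2 rose, Eif4ebp1 (1.93, SE 0.14) and Pdcd4 (0.58, SE 0.17, edgeR adjusted p = 0.0387). Of 10 poly(A)-binding and 43S partners 1 rose, Abce1 (0.37, SE 0.09), and 2 fell, Paip2 (-0.61, SE 0.09) and Pabpc4 (-0.65, SE 0.20, edgeR adjusted p = 0.0490). Mtor rose among 11 mTORC1 genes (0.88, SE 0.19), and none of the 10 elongation and termination genes or the 6 hypusine synthesis genes was called (edgeR). Once fold changes were corrected for exon length and GC content, Abce1 (0.09), Pdcd4 (0.51) and Pabpc4 (-0.59) were not called (edgeR adjusted p = 0.612, 0.0697 and 0.0816). Without Tra2bKO 2, Ppp1r15b (0.41), Eif2ak4 (0.34), Mtor (0.23), Pdcd4 (0.50), Abce1 (0.33) and Pabpc4 (-0.64) were not called, while Eif4ebp1, Atf4 and Paip2 were. Without Tra2bKO 1, Pdcd4 and Pabpc4 were not called and Mtor stood at 1.32.

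Transcript usage, the share of each transcript in its gene, was tested with diffSpliceDGE, with Simes p-values per gene. In control against naive 7 of 38 members were called, Eif5a, Eif5, Eif3e, Eif2a, Eif3g, Eif3b and Eif4e2, or 18.4% against 10.4% of all genes tested. The transcripts named are those with the largest mean shift in the genes with the smallest p. In Eif5a, Eif5a-210 made up 77.0% ± 2.95 (SD) of the gene's counts in naive and 79.2% ± 4.58 in control libraries, which overlapped. In Eif5, Eif5-213 held 15.0% ± 5.98 and 8.04% ± 3.86, and Eif5-212 held 31.3% ± 6.43 and 37.9% ± 10.6, both with overlap. In Eif3e the retained-intron transcript Eif3e-202 was minor in both groups, at 0.157% ± 0.0575 and 0.0374% ± 0.0349. In Eif2a the coding transcript Eif2a-201 held 90.0% ± 2.99 and 95.3% ± 1.86, and the retained-intron transcript Eif2a-204 held 2.40% ± 0.692 and 0.697% ± 0.491. Eif4e2, the last of the 7 by p, was picked out after its values were seen. Its coding transcript Eif4e2-204 held 57.7 to 70.4% in naive and 74.2 to 80.4% in control libraries, and Eif4e2-202 held 21.1 to 29.0% and 13.9 to 18.4%, with no overlap in either. In Tra2bKO against control 1 of 40 members was called, Eif5, against 1.9% of all genes. Its transcript Eif5-213 held 15.5 and 19.1% in the Tra2bKO libraries and 1.98 to 12.6% in the controls, with no overlap, and Eif5-201 was listed at 0 in both Tra2bKO libraries and at 0 to 29.4% in the controls. On simulated data this test recovered 32.1% of 193 genes with a transcript changed 4-fold in control against naive, with 40 false calls. In Tra2bKO against control it recovered 1.53% of 196 such genes, with 30 false calls. In the real data 893 and 183 genes were called. The number of real changes is not known, so the simulation does not give the share of false calls there. Calls in either comparison may be false, and the second test bears little on whether usage differed.

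Transcripts annotated with a retained intron took a smaller share of member counts in the stimulated libraries. They held 3.13% ± 0.547 (SD) of the members' counts in naive, 2.34% ± 0.447 in control and 2.16 to 2.47% in Tra2bKO libraries. The same share over all protein-coding genes was 5.75% ± 0.342 in naive, 3.65% ± 0.231 in control and 3.76 to 3.77% in Tra2bKO libraries. Among 32 members with such a transcript the mean share was lower in control than in naive libraries in 30. In 10 of them (31.2%) every control library lay below every naive library, and in 0 above. Of 6744 protein-coding genes tested with such a transcript, the mean was lower in 82.5%, every control library lay below in 18.3% and above in 0.415%. The summed share of the members overlapped between groups, at 2.06 to 3.69% in naive and 1.79 to 3.30% in control libraries. These shares were not tested.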

How the data were processed

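RNA of 18 mouse CD8+ T cell libraries was sequenced after a polyA-based low-input kit, per the labels. The deposited values are estimated counts in whole numbers for genes and for transcripts. For all 55536 genes the transcript counts sum to the gene count. The submitters' processing notes name StringTie 2.1.0, STAR 2.7.1a, DESeq2 1.30.1, SAMtools 1.9 and R 4.0.5, and the builds mm39 and mm10, without their roles. All 55536 Ensembl gene identifiers, version included, are in GENCODE M21, whose GRCm38 coordinates are used. Rows with numeric identifiers (26248 of 81881, 0.0513 to 0.132% of counts) name no gene and were left out, and 0 columns were unmapped.

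Genes passing filterByExpr (minimum count 10) were scaled by TMM and tested in R 4.3.3 by the robust quasi-likelihood method of edgeR 4.0.16, in control against naive and Tra2bKO against control, with Benjamini-Hochberg adjustment over all genes and calls under 0.05. CPM by library use TMM scaling over all 18 libraries. Usage was tested with diffSpliceDGE. SE means the standard error of a log2 fold change. Library values are given for the members called in Tra2bKO against control (up to 12 by p), the 8 largest rises and falls called in control against naive with a mean of at least 1 CPM, and both members of each paralog pair. Of each gene list up to 4 genes with the smallest p per comparison could be named, and for usage the 4 called members with the smallest p and their 2 transcripts with the largest shift. The members and lists were chosen with earlier results of these data known. Replicate numbers were not used as pairs. Alternatives were DESeq2 1.42.0, RLE factors, total counts, no filter, all groups in one fit, limma 3.58.1 voom, the replicate block, a correction for exon length and GC content, no receptor segments and markers, controls 1 and 2 or 3 to 8 alone, and leaving out each library. On simulated data with the real means edgeR found 65.7% of 1.5-fold, 82.1% of 2-fold and 93.9% of 4-fold changes in control against naive (16697 genes, 3 false calls), and 29.9%, 68.7% and 87.9% in Tra2bKO against control (17881 genes, 4 false calls). The limit given for a count of 0 covers counting error only.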

Additional observations from a re-analysis of the deposited data

Results flagged for a closer look

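Among 92 groups of 8 libraries (46 members in naive and control), 6 held a library far from the other 7, and chance gives about 1 in 20. Control 1 was high in 4 of them. It stood at 253 CPM in Eif1ax against 200 to 224 CPM in the other controls, at 135 CPM in Eif2s3x against 90.3 to 110 CPM, at 120.1 CPM in Eif2b4 against 96.5 to 107 CPM and at 221 CPM in Eif3k against 178 to 196 CPM. Naive 5 was low in Eif2a, at 42.3 CPM against 49.9 to 54.9 CPM. Naive 6 was listed at 0 for Eif3j2, against 24.4 to 36.1 CPM in the other naive libraries.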

How the results depend on the processing

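In control against naive, the count of members called higher stayed within 1.5 times of 35 in every alternative except a log2 fold change of at least 1, which left 0 higher and 0 lower, and controls 1 and 2 alone left 1 lower. In Tra2bKO against control, the replicate block and controls 1 and 2 alone each left 0 higher and 0 lower (0 genes called over the whole table under the block and 5 with 2 controls, and 3536 and 2811 at an unadjusted p under 0.05). A log2 fold change of at least 1 left 1 higher and 0 lower. The lower count was 3 with no filter on low counts, 2 with voom and 8 with the length and GC trend removed. Leaving out 1 library gave 0 to 5 higher and 1 to 5 lower. Usage calls in control against naive were 21 of 38 members with voom (3666 of 8581 genes) and 20 of 35 with a stricter filter (2796 of 7043 genes). They were 3 to 6 leaving out 1 library (650 to 833 genes). In Tra2bKO against control they were 5 of 40 with voom (957 of 9653 genes) and 2 of 37 with the stricter filter (171 of 7735 genes). They were 0 to 1 leaving out 1 control library, and 2 with the replicate block (105 genes). On simulated data voom and the stricter filter recovered 64.2 and 63.1% in control against naive, and 24.0 and 2.21% in Tra2bKO against control. The share of Eif1b differed by 0.413 points from gene counts and 0.503 with controls 3 to 8, both no longer past the threshold, and by 0.454 to 0.748 leaving out 1 library, where 10 of 16 omissions missed it (adjusted permutation p = 0.0559 to 0.0873). The sign turned for Eif1 with controls 1 and 2 alone (0.030) and for Eif1b with total counts (-0.076) and without naive 4 (leaving out 1 library gave -0.0019 to 0.058), none of these called. Eif1 was called lower with total counts only (-0.15), and Eif3j2 higher without naive 6 (0.82). The cause was not tested. The replicate block left 35 members higher and 3 lower in control against naive. Residuals of same-numbered libraries had correlations of -0.040 to 0.049 there (1 of 8 highest with its own number) and of 0.012 and 0.059 in Tra2bKO against control (1 of 2), so the numbers were not taken as pairs.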
